A study of Mus musculus with 6 samples.

Results

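The aryl hydrocarbon receptor pathway was described here through 8 genes, Ahr, Arnt, Ahrr, Tiparp, Cyp1a1, Cyp1b1, Nqo1 and Nfe2l2, out of 22180 genes measured. The genes were taken by name as a pathway, but with earlier results of these data known. Their ranks and counts are therefore not those of genes chosen blind to the values. Each gene's probe set was picked by its mean level and not by the difference between groups. It was the brightest over all 6 arrays among those annotated to exactly 1 gene symbol. This choice of probe set mattered for Tiparp alone, since the other 7 genes had a single such probe set. The RNA of CD8+ T cells from C57BL/6 mice was read on 6 whole-transcript expression arrays, 3 labelled Dot1l knockout and 3 labelled wild type. Dot1l encodes the methyltransferase of histone H3 lysine 79. Per the labels' protocols, mice with floxed Dot1l alleles were bred to mice with Cre under the Cd4 promoter, which is switched on while T cells develop, so every T cell lineage that passes through that stage would be affected. Cells were taken fresh from lymph nodes and spleen and enriched with a magnetic kit. Both groups share strain, tissues and isolation. The labels do not state which alleles the wild type mice carried, the animals' age or whether arrays came from separate animals. P-values therefore measure the spread between these arrays, which may be technical.

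The receptor encoded by Ahr is a transcription factor that waits in the cytoplasm with chaperones until it binds a small aromatic ligand, from pollutants, diet, microbes or tryptophan breakdown. It then enters the nucleus, pairs with the protein of Arnt and binds DNA elements near target genes such as Cyp1a1, Cyp1b1, Tiparp and Ahrr. The products of the last pair feed back to restrain the receptor. Nfe2l2 encodes NRF2, a sensor-controlled activator of antioxidant genes. Nqo1, a quinone reductase gene, is a target of both factors. In T cells the receptor is best known from interleukin-17 and interleukin-22 producing cells and from cells that live in barrier tissues.

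The element bound by the receptor with its partner has the core GCGTG. Promoter sequences from RefSeq (GRCm38.p6, 250 bases before to 50 after the start site) were found for 7 of the 8 genes, all but Ahr. Those of 4 target genes, 1 that rose and 3 that read at background, are printed to show that the core stands in both kinds, 5′ to 3′ on the gene's own strand, with each core in capitals (GCGTG, or CACGC where it lies on the other strand). Tiparp lies at chr3:65528197-65528496 (plus strand), Ahrr at chr13:74292282-74292581 (minus strand), Cyp1a1 at chr9:57697363-57697662 (plus strand) and Cyp1b1 at chr17:79715012-79715311 (minus strand). The Cyp1a1 window surrounds a start site inside the gene, whose first annotated base is 57687928, and the region at that base was not searched.
Tiparp: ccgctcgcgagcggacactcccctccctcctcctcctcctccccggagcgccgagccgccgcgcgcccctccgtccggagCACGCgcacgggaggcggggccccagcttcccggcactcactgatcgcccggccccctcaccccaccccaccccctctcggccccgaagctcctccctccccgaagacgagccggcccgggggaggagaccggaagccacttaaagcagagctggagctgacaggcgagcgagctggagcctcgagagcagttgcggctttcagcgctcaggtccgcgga
Ahrr: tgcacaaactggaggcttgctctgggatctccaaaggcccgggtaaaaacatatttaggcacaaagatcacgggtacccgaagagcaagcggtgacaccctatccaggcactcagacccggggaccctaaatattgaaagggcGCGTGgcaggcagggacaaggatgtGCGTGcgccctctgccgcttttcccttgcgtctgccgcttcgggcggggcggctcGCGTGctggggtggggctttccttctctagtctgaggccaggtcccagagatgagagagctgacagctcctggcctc
Cyp1a1: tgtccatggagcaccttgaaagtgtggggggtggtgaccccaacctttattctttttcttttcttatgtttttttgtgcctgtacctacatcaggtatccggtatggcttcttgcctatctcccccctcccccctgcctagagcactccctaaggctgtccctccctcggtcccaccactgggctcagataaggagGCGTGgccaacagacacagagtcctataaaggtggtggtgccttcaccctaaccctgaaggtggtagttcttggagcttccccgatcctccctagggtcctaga
Cyp1b1: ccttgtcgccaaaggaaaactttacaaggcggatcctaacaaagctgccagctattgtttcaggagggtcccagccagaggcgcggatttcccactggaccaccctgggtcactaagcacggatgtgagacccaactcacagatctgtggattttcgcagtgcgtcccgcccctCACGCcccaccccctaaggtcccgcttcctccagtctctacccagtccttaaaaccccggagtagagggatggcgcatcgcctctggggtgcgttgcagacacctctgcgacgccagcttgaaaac
Tiparp, Cyp1a1 and Cyp1b1 each held 1 core in this window and Ahrr held 3. One of the Ahrr cores, and none in the other 3 promoters, matched the longer form TNGCGTG. Arnt also held 1 core, while the windows of Nqo1 and Nfe2l2 held none. The core is common: 32.4% of 32851 promoter windows of the same length held it on either strand, and 5.07% held the longer form. The antioxidant element of NRF2 was searched as TGANNNNGC on both strands. It matched once in Tiparp and in Nfe2l2, 2 times each in Ahrr and Arnt, and nowhere in the windows of Cyp1a1, Cyp1b1 and Nqo1, against 41.3% of all windows. With the stricter TGACNNNGC, held by 12.4% of all windows, matches were left in Arnt and Nfe2l2. These matches describe letters in a short window and are not sites of measured binding.

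Before the pathway was compared, the labels were checked. On the log2 scale Dot1l lay at 7.26 to 7.33 in knockout-labelled arrays, against 6.96 to 7.46 in wild type arrays, a difference of 0.10 (SE 0.13, limma with Benjamini-Hochberg adjusted p = 0.765). The labels do not name the exon that Cre removes. A probe set that lies elsewhere in the gene checks nothing, so directions refer to arrays as labelled. The 6 measured T cell markers Cd3d, Cd3e, Cd3g, Cd8a, Cd8b1 and Thy1 averaged 10.88 to 10.93 in knockout-labelled arrays, against 10.84 to 11.02 in wild type arrays, and none passed by limma (1 at an unadjusted p under 0.05, Thy1 at 0.31). A background guide was set at 3.83, the 95th percentile of the levels of 1394 olfactory and vomeronasal receptor genes, since T cells have no known use for these. B cell markers differed: 3 of 7 passed as higher, and the sum of their linear levels was 258 to 310 in knockout-labelled arrays, against 173 to 210 in wild type arrays. Cd22 (1.29), Ms4a1 (1.13) and Cd79a (0.86) passed, with Ms4a1 below the guide on all wild type arrays, so the size of its difference is uncertain. The group means of Pax5, Blnk and Ebf1 lay below the guide, and Cd79b, the brightest of the list, overlapped (0.24, adjusted p = 0.41). The part of these markers in the results that follow was not tested.

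The receptor gene rose and 1 of its feedback targets rose with it. Ahr was 4.7-fold higher in knockout-labelled arrays. Tiparp, which encodes a mono-ADP-ribosyltransferase induced by the receptor, was 1.60-fold higher. Arnt and Nfe2l2 were well expressed and did not pass, and Cyp1a1, Cyp1b1, Ahrr and Nqo1 read at background in both groups. So 2 of 8 genes passed as higher and 0 as lower (also 2 and 0 at an unadjusted p under 0.05, by limma), where 5.5% of all 22180 genes passed in either direction. Over all genes 4.3% (954) passed as higher and 1.2% (266) as lower.

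Ahr read 8.43, 8.59 and 8.52 in the 3 knockout-labelled arrays, against 6.28, 6.11 and 6.45 in wild type arrays (log2 expression). The lowest knockout-labelled array lay far above the highest wild type array, and the spread within a group was small beside the gap. Ahr averaged 8.51 ± 0.08 in knockout-labelled arrays and 6.28 ± 0.17 in wild type arrays (SD, n = 3 each, as for all means here). The log2 difference was 2.23 (SE 0.12, 95% interval 1.97 to 2.50). Its Benjamini-Hochberg adjusted p from limma was 2.02e-05 over all genes. By p it ranked 10 and by size of difference 27 among the 22180 genes. RNA of mixed cells was measured, so more RNA per cell and more cells with the transcript cannot be told apart.

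Arnt, the partner without which the receptor cannot bind DNA, did not pass. Its values were 7.79, 7.86 and 8.03 in knockout-labelled arrays, against 7.94, 7.91 and 8.20 in wild type arrays. The groups overlapped, and the log2 difference was -0.12 (SE 0.12, 95% interval -0.39 to 0.15, adjusted p = 0.664 by limma). An increase of more than 0.15 on the log2 scale thus lay outside the interval, while a modest decrease did not.

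**Figure D1:**
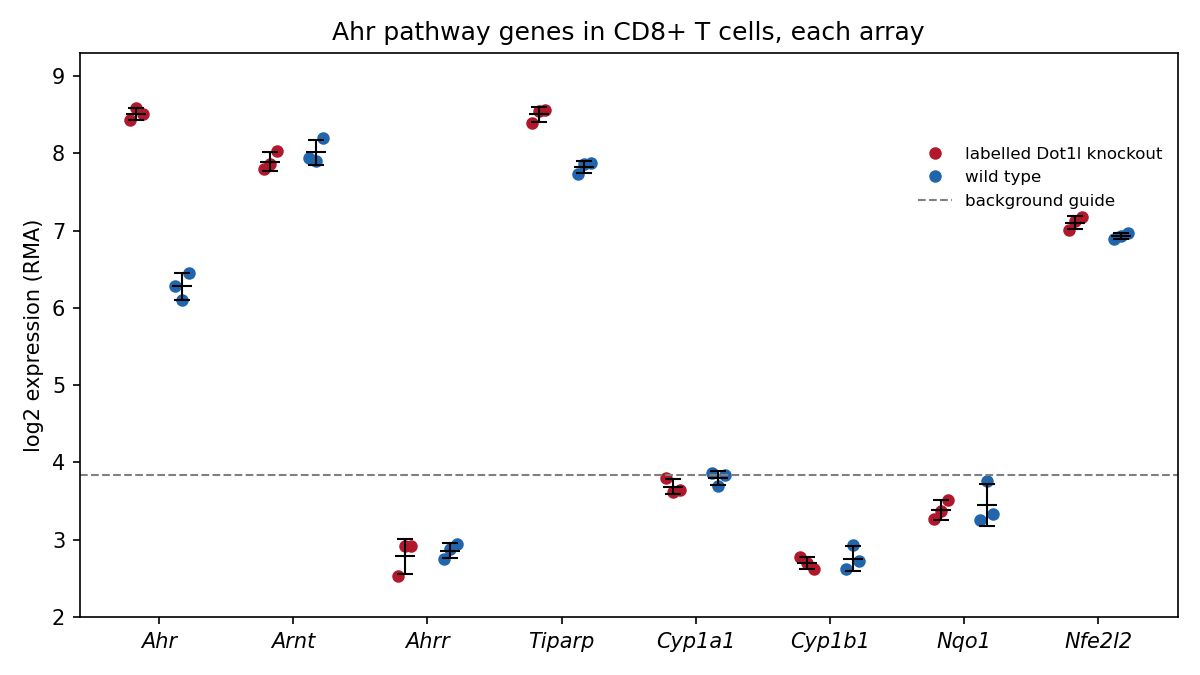
Log2 expression of the 8 pathway genes on each array, with knockout-labelled arrays (red) left of wild type arrays (blue), and bars for the mean ± SD of 3 arrays; the dashed line is the background guide of 3.83. Ahr and Tiparp are separated between the groups, Arnt overlaps, and Ahrr, Cyp1a1, Cyp1b1 and Nqo1 sit at or below the guide; heights of different genes are read by different probes and are not comparable.

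Tiparp was the 1 target among the 8 genes with a clear signal. Its values were 8.40, 8.55 and 8.57 in knockout-labelled arrays, against 7.74, 7.86 and 7.87 in wild type arrays. The groups did not overlap, as was so for 23.5% of all genes tested. The log2 difference was 0.68 (SE 0.10, 95% interval 0.45 to 0.91, adjusted p = 0.00486 by limma). The gene's other probe set, left out as the dimmer one, read 2.44 ± 0.14 in knockout-labelled arrays, against 2.19 ± 0.20 in wild type arrays, below the guide, so it gives no second reading of the change.

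The other targets gave little or no signal. Cyp1a1, the classical enzyme readout of receptor activity, read 3.80, 3.61 and 3.64 in knockout-labelled arrays, against 3.86, 3.70 and 3.83 in wild type arrays. It was above the guide on 1 of 6 arrays, a wild type one. The groups overlapped (log2 difference -0.11, SE 0.10, adjusted p = 0.637).

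Cyp1b1, an oxidase of steroids and aromatic compounds, read 2.78, 2.70 and 2.62 in knockout-labelled arrays, against 2.62, 2.93 and 2.72 in wild type arrays. Ahrr, the repressor that competes with the receptor for Arnt, read 2.53, 2.92 and 2.92 in knockout-labelled arrays, against 2.75, 2.88 and 2.94 in wild type arrays. Both lay below the guide on every array, with overlapping groups. Their log2 differences were -0.05 (SE 0.11) and -0.07 (SE 0.13), with adjusted p = 0.861 and 0.835 by limma. For probe sets at background such values bound no change in the transcript, since RMA compresses differences there.

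Neither gene of the NRF2 branch passed. Nfe2l2 read 7.01, 7.13 and 7.18 in knockout-labelled arrays, against 6.89, 6.93 and 6.97 in wild type arrays. Every knockout-labelled value was above every wild type value, but the gap was 0.18 on the log2 scale (SE 0.10, 95% interval -0.04 to 0.40, adjusted p = 0.4) and did not pass. Nqo1 read 3.26, 3.38 and 3.52 in knockout-labelled arrays, against 3.25, 3.76 and 3.34 in wild type arrays. All 6 values were below the guide and the groups overlapped (log2 difference -0.07, SE 0.15, adjusted p = 0.871).

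Among the 8 genes Ahr and Tiparp were the only detected receptor and target. That pair alone cannot settle whether receptor and targets moved together. Both were higher on all 3 knockout-labelled arrays than on any wild type array. The groups did not overlap, in either direction, for 23.5% of all genes tested. Among knockout-labelled arrays, replicate 1 had the lowest value of Ahr, Tiparp and Nfe2l2. Among wild type arrays, replicate 2 was lowest for Ahr, whereas replicate 1 was lowest for Tiparp and Nfe2l2. Ahr and Tiparp did not share an order of arrays within either group. Over the 8 genes the median log2 difference was -0.06, against -0.01 over all genes tested.

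**Figure D2:**
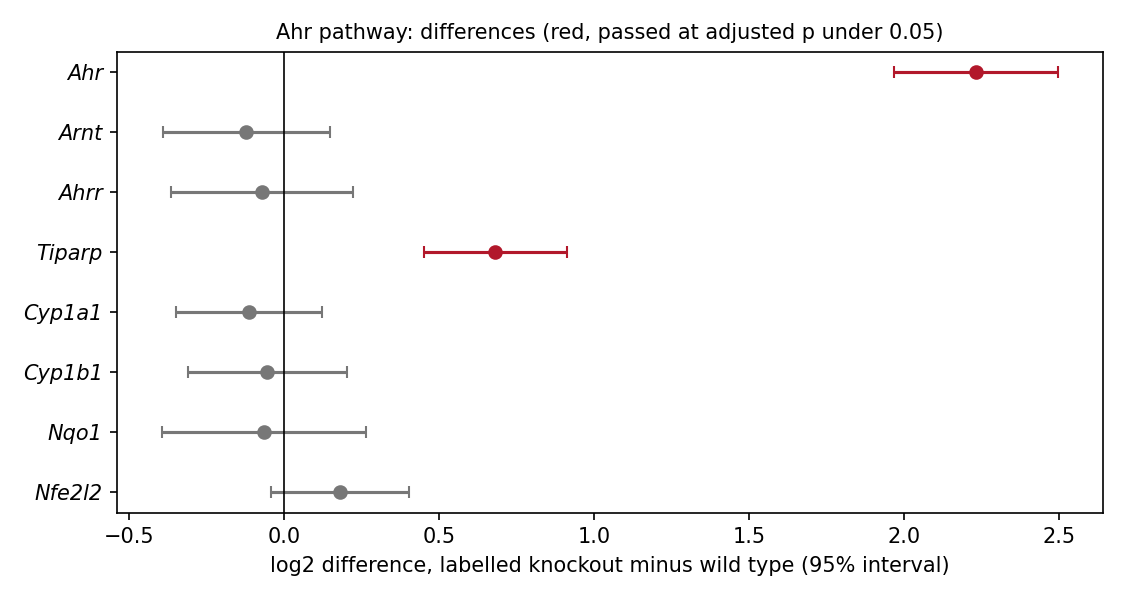
Log2 difference of each pathway gene, knockout-labelled minus wild type, with its 95% interval from limma; red marks genes that passed at an adjusted p under 0.05. The intervals of Ahr (1.97 to 2.50) and Tiparp (0.45 to 0.91) lie above 0, and those of the other 6 genes include 0.

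Wider lists of the pathway held 122 measured genes, of which 13 passed as higher and 1 as lower (11.5%), beside 5.5% of all genes tested. Their median log2 difference was 0.07. After another quantile normalization the split of passing genes was 12 higher and 5 lower, and after median centring 12 and 3. Over all genes, 625 higher and 470 lower passed after quantile normalization. The listed genes were also brighter than most: 91 of the 122 lay above the guide, as did 11408 of all 22180 genes. With only genes above the 50th percentile of level tested, 17 of 89 wider pathway genes passed, beside 1537 of 11090 genes in all. The share of passing genes in these lists is thus not free of their level.

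Receptor chaperones and cofactors did not pass in either direction (0 of 11 by limma, median 0.19), and at an unadjusted p under 0.05 there were 4 higher and 1 lower. Nrip1, a nuclear receptor corepressor gene, was the nearest (0.47, SE 0.12, adjusted p = 0.0567), followed by the coactivator gene Ncoa2 (0.33, SE 0.10, adjusted p = 0.107, both by limma). Among genes of the receptor's own protein family, which share the bHLH-PAS fold and in part the partner Arnt, 1 of 15 passed. It was Epas1, which encodes the hypoxia-inducible factor HIF-2alpha, at 5.27, 5.27 and 5.37 in knockout-labelled arrays, against 4.09, 3.80 and 4.70 in wild type arrays (1.11, SE 0.20, adjusted p = 0.0116). Without knockout replicate 3 its adjusted p was 0.0568. The list otherwise leaned lower, with a median of -0.13, beside -0.01 over all genes tested. Of its 15 differences 4 were above 0, beside 10476 of 22180 over all genes. Only 9 of the 15 genes lay above the guide. At an unadjusted p under 0.05 by limma 1 was higher and 4 were lower. The circadian factor gene Clock (-0.47, SE 0.12, adjusted p = 0.0573) and Hif1a (-0.27, SE 0.10, adjusted p = 0.204), both named after their values were seen, did not pass.

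Of 14 targets of hypoxia-inducible factors, which also use Arnt, 3 passed as higher and 0 as lower by limma, with a median of 0.15 and 5 higher and 1 lower at an unadjusted p under 0.05. Egln3, a prolyl hydroxylase that marks those factors for destruction, read 6.96, 6.92 and 7.09 in knockout-labelled arrays, against 5.52, 5.21 and 5.23 in wild type arrays (1.67, SE 0.12, adjusted p = 7.42e-05). The angiogenic factor gene Vegfa was higher by 1.13 (SE 0.15, adjusted p = 0.00213) and the stress gene Ddit4 by 0.47 (SE 0.11, adjusted p = 0.0323). Ddit4 passed without wild type replicate 2 and in none of the other 5 fits that left out 1 array (adjusted p = 0.085 to 0.128), nor with either rescaling. Pdk1, a kinase gene that holds pyruvate back from mitochondria, went the other way without overlap and did not pass (-0.44, SE 0.11, adjusted p = 0.0506). It was named after its value was seen.

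Further xenobiotic targets gave 1 passing gene of 6 measured. Xdh, the xanthine dehydrogenase gene, read 7.00, 7.00 and 7.10 in knockout-labelled arrays, against 6.25, 6.26 and 6.22 in wild type arrays (0.79, SE 0.09, adjusted p = 0.00143). Its groups were far apart relative to their spread. Cyp2s1, an oxidase gene, and Gstm1, a glutathione transferase gene, were detected on all 6 arrays and did not pass. Cyp2s1 was lower without overlap (-0.18, SE 0.11, adjusted p = 0.429), and Gstm1 overlapped (0.14, SE 0.13, adjusted p = 0.635). Both were named after their values were seen. Cyp1a2, the close relative of Cyp1a1 and named after its value was seen, lay below the guide at 3.53 ± 0.17 in knockout-labelled arrays, against 3.68 ± 0.10 in wild type arrays.

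Among 17 genes linked to the receptor in T cells, 4 passed as higher and 0 as lower, with a median of 0.08. Notch2, a receptor of the Notch family, was higher by 0.75 (SE 0.10, adjusted p = 0.00294) and the transcription factor gene Maf by 0.69 (SE 0.10, adjusted p = 0.00313). Ikzf3, which encodes the lymphoid zinc finger factor Aiolos, was higher by 0.57 (SE 0.11, adjusted p = 0.0195), and did not pass without knockout replicate 1, 2 or 3 or wild type replicate 3 (adjusted p = 0.0834, 0.0756, 0.069 and 0.0623). Socs2, a feedback inhibitor of cytokine signalling, was higher by 2.36 (SE 0.32, adjusted p = 0.00293) on a probe set below the guide in wild type arrays. The other probe set of Socs2 (0.02) read 3.86 in knockout-labelled arrays and 3.84 in wild type arrays, at the guide. The one used read 5.07 and 2.71, so it was the brighter only through its knockout-labelled values. For Socs2 the choice of probe set was thus not free of the difference. The other probe set of Maf (0.11) lay below the guide and gives no second reading. Averaging probe sets gave 1.19 for Socs2, which passed, and 0.40 for Maf, which did not (adjusted p = 0.0759). The interleukin genes that mark receptor-dependent helper cells were not among the passing genes. Il22 read 1.66 ± 0.23 in knockout-labelled arrays, against 1.64 ± 0.05 in wild type arrays, below the guide.

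**Figure D3:**
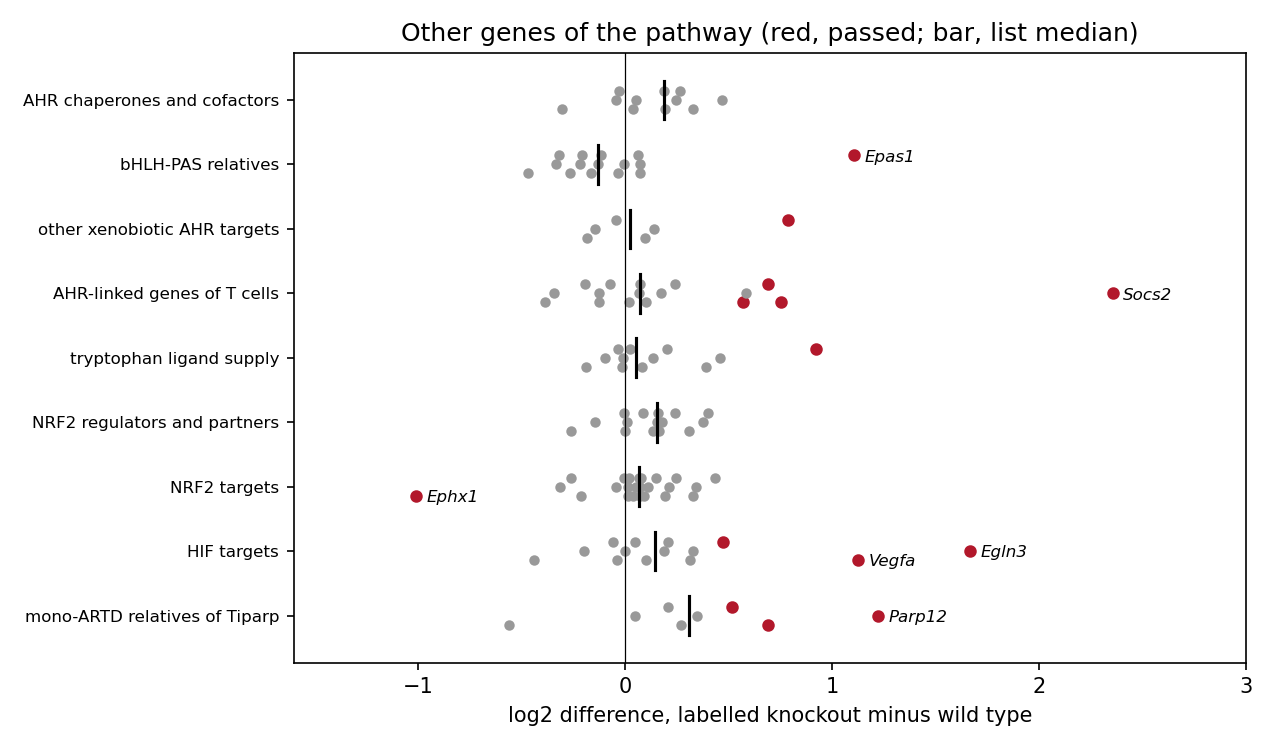
Log2 differences, knockout-labelled minus wild type, of the other measured genes of the pathway by list; each point is a gene, red points passed at an adjusted p under 0.05, and black bars are list medians. Passing genes are few in each list, with names shown where the difference exceeds 1 in size; list medians lie between -0.13 and 0.31.

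Genes that supply or import tryptophan-derived ligands gave 1 passing gene of 12, higher in knockout-labelled arrays, with a median of 0.05. Slc7a8, an amino acid transporter gene, read 4.35, 4.26 and 4.21 in knockout-labelled arrays, against 2.97, 3.41 and 3.67 in wild type arrays, where it lay below the guide (0.92, SE 0.16, adjusted p = 0.0114, or 0.0528 without knockout replicate 1). Slc7a5, the transporter that carries tryptophan and kynurenine into activated T cells and named after its value was seen, differed by -0.01 (SE 0.11, adjusted p = 0.983).

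For NRF2, none of 15 regulators and partners passed by limma (median 0.15), with 3 higher and 0 lower at an unadjusted p under 0.05. The nearest were Keap1, the adaptor that marks NRF2 for degradation (0.38, SE 0.10, adjusted p = 0.0675), and its dimer partner gene Mafg (0.40, SE 0.13, adjusted p = 0.129). Of 24 NRF2 targets 0 passed as higher and 1 as lower by limma, with a median of 0.07 and 2 in each direction at an unadjusted p under 0.05. The gene that fell was Ephx1, an epoxide hydrolase of xenobiotic metabolism, at 6.69, 6.87 and 6.80 in knockout-labelled arrays, against 7.75, 8.07 and 7.57 in wild type arrays (-1.01, SE 0.14, adjusted p = 0.00277). Ephx1 thus moved opposite to Ahr and Tiparp, with no overlap between groups.

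Tiparp belongs to a family of enzymes that attach single ADP-ribose units, several of which are induced by interferon. Of 8 measured relatives 3 passed as higher and 0 as lower, beside 4.3% and 1.2% of all genes tested. All 8 lay above the guide, and with only genes above the 50th percentile of level tested 1537 of 11090 passed. The median of the relatives, 0.31, was the highest among the 9 lists. Parp12 was higher by 1.22 (SE 0.20, adjusted p = 0.00696), Parp9 by 0.69 (SE 0.14, adjusted p = 0.0189) and Parp8 by 0.52 (SE 0.11, adjusted p = 0.0245). With the covariate described at the end Parp12 differed by 0.60 (adjusted p = 0.409). Parp6, named after its value was seen, was lower without overlap and did not pass (-0.56, SE 0.16, adjusted p = 0.0888). Parp9 and Parp8 each failed to pass in 4 of the 6 fits that left out 1 array, with adjusted p up to 0.0918 and 0.0955.

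Genes with the pattern most like that of Ahr were sought among 11407 genes above the guide, by the root mean square difference of mean-centred log2 values over the 6 arrays. The nearest were Pik3ap1 (0.097), an adaptor between antigen or Toll-like receptors and PI3 kinase, Ccrl2 (0.099), an atypical chemokine receptor gene, Cdh1 (0.13), which encodes E-cadherin, Pld4 (0.164), an endosomal nuclease gene, and the microRNA gene Mir1904 (0.167). Their log2 differences were 2.01 to 2.31, beside 2.23 for Ahr, a closeness that follows from how they were picked. Leaving out 1 predicted gene, the genes nearest to Nfe2l2 were Zfp61, Ddhd2, Wapl, Snrnp200 and Bach1 (0.014 to 0.025), of which Bach1 encodes a repressor that competes with NRF2 for DNA. A flat gene has many close neighbours by this measure, and the median distance to Nfe2l2 was 0.186, against 1.11 for Ahr.

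Other cells that carry much receptor were looked for through their markers. Of 7 markers of interleukin-17 producing, gamma delta and innate lymphoid cells none passed by limma (1 lower at an unadjusted p under 0.05), and their linear sum was 85.3 to 94.3 in knockout-labelled arrays, against 92.2 to 98.4 in wild type arrays. Il23r, Il1r1, Ccr6 and Il22 lay below the guide in both groups. Among dendritic cell markers 1 of 7 passed, Itgax (1.14), while the group means of Flt3, Zbtb46, Xcr1, Siglech and Batf3 lay below the guide, with Xcr1 above it on 2 arrays. Nearly all of the summed level of this list, 2040 to 2130 in knockout-labelled arrays, against 2370 to 2660 in wild type arrays, was Ccr7, which T cells also express. Without Ccr7 the sums were 88.1 to 103 in knockout-labelled arrays, against 71.4 to 77.6 in wild type arrays. The brightest marker left in them was Itgax, at log2 levels of 5.31 to 5.81 in knockout-labelled arrays, against 4.23 to 4.65 in wild type arrays. These sums thus largely repeat the difference of Itgax. Of 9 macrophage, monocyte and neutrophil markers 1 passed, Itgam (0.60), with sums of 120 to 129 in knockout-labelled arrays, against 112 to 137 in wild type arrays. At an unadjusted p under 0.05 by limma 1 was higher and 2 were lower. The lower ones, named after their values were seen, were Adgre1 (-0.60, below the guide on all knockout-labelled arrays) and Csf1r (-0.40). Without Itgam, the brightest of the list, the sums were 83.7 to 99 in knockout-labelled arrays, against 91.2 to 117 in wild type arrays. Of 7 CD4 helper and regulatory T cell markers Ikzf2 (1.16) and Il2ra (0.69) passed as higher. Cd40lg (-0.88, below the guide on all knockout-labelled arrays) passed as lower. Ctla4, the brightest of the list, was lower without overlap and did not pass by limma (-0.54, adjusted p = 0.0752). Cd4 (0.06), Foxp3 (-0.25) and Zbtb7b (-0.06) overlapped. The sums were 517 to 573 in knockout-labelled arrays, against 425 to 530 in wild type arrays. Without Ctla4 they were 334 to 385 in knockout-labelled arrays, against 218 to 228 in wild type arrays. The largest part of that rest was Ikzf2, at log2 levels of 7.83 to 8.10 in knockout-labelled arrays, against 6.65 to 6.87 in wild type arrays. Cd4 itself lay near the guide, at 3.86 in knockout-labelled arrays and 3.79 in wild type arrays. None of 6 stromal and endothelial markers passed by limma (1 higher at an unadjusted p under 0.05), and their sums were 540 to 583 in knockout-labelled arrays, against 627 to 640 in wild type arrays. Pecam1 made up most of these, and without it the sums were 69.0 to 78.7 in knockout-labelled arrays, against 64.6 to 70.0 in wild type arrays.

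Probe sets outside the gene test moved with the labels as well. The median of the 16010 without a gene name was 3.55 to 3.63 in knockout-labelled arrays, against 3.34 to 3.49 in wild type arrays, while the medians of the tested genes overlapped (3.91 to 3.92 in knockout-labelled arrays, against 3.85 to 3.97 in wild type arrays). With the unnamed median as a covariate the Ahr difference was 1.94 (SE 0.19, adjusted p = 0.0105 by limma) and still passed, whereas Tiparp differed by 0.68 (SE 0.19, adjusted p = 0.152) and did not. Across the 6 fits that left out 1 array, Ahr differed by 2.15 to 2.32 and Tiparp by 0.64 to 0.74, and both passed in each.

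**Figure D4:**
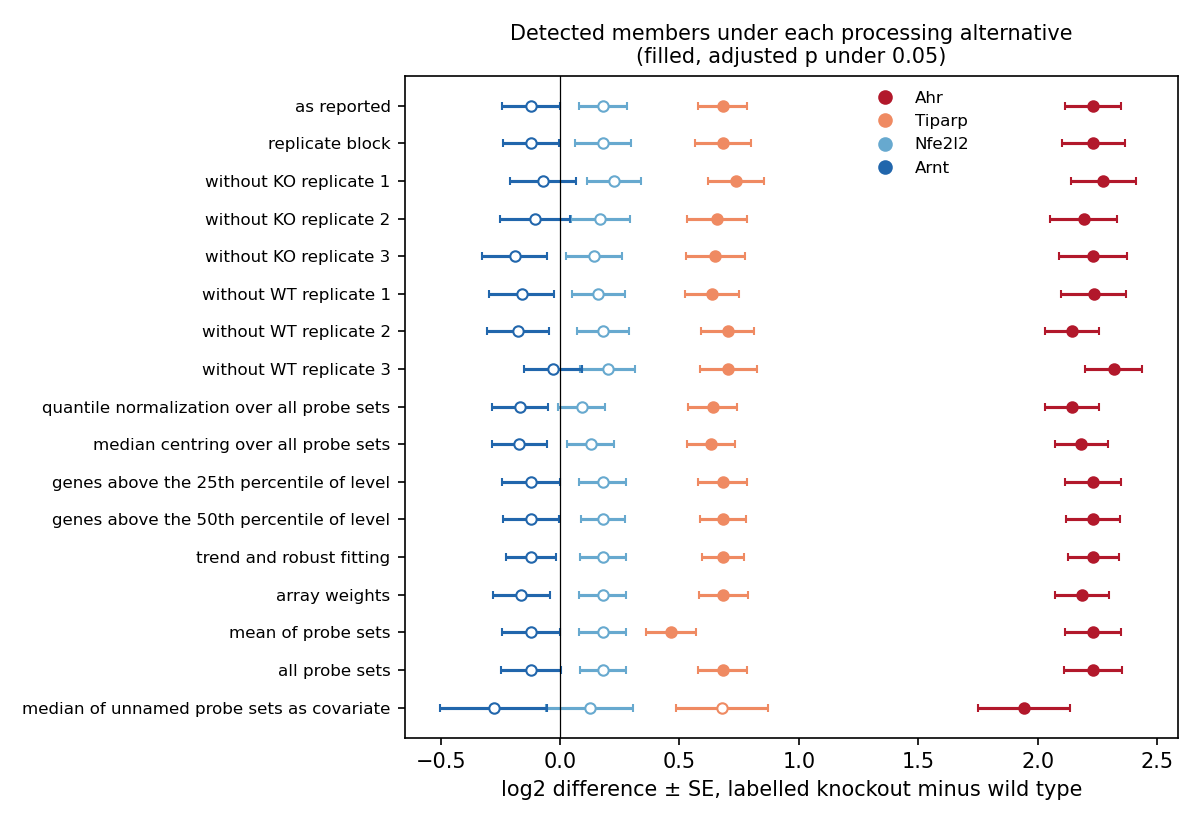
Log2 differences ± SE of the 4 detected pathway genes, knockout-labelled minus wild type, as reported and under 16 processing alternatives; filled points passed at an adjusted p under 0.05. Ahr stays between 1.94 and 2.32 and passes throughout, Tiparp lies between 0.47 and 0.74 and misses with the covariate only, and Nfe2l2 and Arnt pass nowhere.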

How the data were processed

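Per the submitters' processing notes, the authors deposited log2 expression values that came from RMA, run in R 3.1.1. Its settings, any array batch, the annotation version and the build are not stated there. Of 41345 probe sets 23521 carried 1 gene symbol in the platform annotation, 1814 several and 16010 none. The brightest probe set of each gene over all 6 arrays gave 22180 genes. Single values ran from 1.03 to 12.85, and arrays have no count depth, so their number limits the precision.

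Knockout-labelled minus wild type differences were fitted over all genes by lmFit and eBayes of limma 3.58.1 (R 4.3.3, no covariate) and adjusted by the Benjamini-Hochberg method. Genes with an adjusted p below 0.05 passed. The fit was tested on simulated data. The pathway genes, the lists, the motifs and the alternatives were chosen with earlier results of these data known. Named by rule were the 8 pathway genes, every passing gene of a list or else its 2 smallest p, passing markers, Dot1l and the 5 nearest genes to Ahr and Nfe2l2. All other genes, among them Il22 and the markers that did not pass, were named after their values were seen. Genes of a list with no probe set of their own were not measured.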

Additional observations from a re-analysis of the deposited data

How the results depend on the processing

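Of the 8 pathway genes (6 and 4 of them tested under the level filters) 2 passed under 17 of 18 alternatives and 1 with the median of unnamed probe sets as a covariate, where Tiparp did not pass (adjusted p = 0.152). With that covariate 216 of all genes passed in place of 1220, and 2 of the 122 wider pathway genes in place of 14. Those were Egln3 and Gstp1, and Gstp1 had not passed without it (adjusted p = 0.734). Standard errors grew with the covariate. Differences of Epas1 (0.67), Ikzf3 (0.33), Notch2 (0.52), Parp12 (0.60), Parp9 (0.48), Parp8 (0.29) and Ephx1 (-0.75) shrank. Those of Egln3 (1.465), Xdh (0.80), Socs2 (2.47), Maf (0.66), Vegfa (0.99), Ddit4 (0.74) and Slc7a8 (1.19) stayed nearly as large or grew. At an adjusted p under 0.01, 534 genes and 8 wider pathway genes passed. Leaving out 1 array gave 615 to 1307 passing genes, 9 to 19 wider pathway genes and 2 of the 8. The replicate block left 912 genes, 12 wider pathway genes and the same count of 2, with Ahr at an adjusted p of 0.000117 and Tiparp at 0.0149. Replicate numbers did not pair the arrays: deviations of same-numbered arrays correlated at -0.074, -0.157 and -0.0741, and no array correlated best with its own number. Among the 8 pathway genes and the 14 passing genes of the wider lists, directions turned only for 3 of the undetected ones, which never passed. With 1 array left out Ahrr ran from -0.137 to 0.0585 (above 0 without knockout replicate 1), Cyp1b1 from -0.123 to 0.0337 and Nqo1 from -0.162 to 0.0891 (both above 0 without wild type replicate 2). With the covariate Cyp1b1 differed by 0.26 and Nqo1 by 0.30. Averaging the probe sets of Tiparp gave 0.47 (adjusted p = 0.0326). Probe sets below the guide limit what can be said of Ahrr, Cyp1a1, Cyp1b1 and Nqo1.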
